A study of Mus musculus with 9 samples.

Results

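The 6 MC38 tumours in which Gad1 was knocked down were compared by shRNA, 3 tumours with shRNA A (shA) against 3 with shRNA B (shB), out of 9 tumours in all. MC38 cells are a line from a mouse colon adenocarcinoma. Cells of every group were infected with lentivirus carrying an shRNA and selected with puromycin, and no single-cell cloning is described. They were then implanted under the skin of C57BL/6 mice, and whole tumours were taken on day 20. The groups used here are GAD1-shA, GAD1-shB and, for reference values only, the 3 tumours with a non-targeting control shRNA (NTC). All carry a viral vector and a puromycin-selected cell population, and all hosts are C57BL/6 with no other allele or treatment named. The members are libraries chosen by their labels, and the genes are those with at least 20 normalised reads in at least 3 of the 6 libraries, 14196 of 17134 listed.

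Gad1 encodes glutamate decarboxylase, which makes the transmitter GABA from glutamate. An shRNA is processed to a short guide that lowers the target transcript, and guides with different sequences can also lower different unintended transcripts. For that reason knockdown studies commonly use more than 1 shRNA, and the difference between them shows what is not shared. A subcutaneous tumour holds cancer cells and host immune, vascular and stromal cells, and a piece of it may hold muscle, skin or fat from the implantation site. In such bulk RNA, fewer cells of a type and less RNA per cell cannot be told apart.

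The 6 knockdown libraries held 18624816 to 24918174 reads assigned to genes. Values are read counts divided by a factor per library, called normalised reads below. The defining epithelial gene Cdh1 read 18060 to 21868 and Epcam 5085 to 11194 over the 6 tumours, so these general epithelial markers were detected in each. Some other epithelial genes examined read far lower. Cdx1 read 0 to 4.67, Lgals4 6.09 to 30.5, Cdx2 19.6 to 160 and Vil1 118 to 535. Gad1 itself read 13.1, 23.4 and 50.0 normalised reads in shA replicates 1, 2 and 3, and 21.8, 42.2 and 23.6 in shB, against 281, 265 and 326 in NTC. The shA and shB tumours overlapped, and every knockdown tumour was below every NTC tumour. The shA minus shB difference of Gad1 was -0.16 on the log2 scale, with an SE of 0.59 and a 95% interval of -1.54 to 1.21. An exact two-sided permutation test over the 20 assignments of the 6 tumours gave p = 0.9, where the smallest p possible is 0.1. The interval holds more than a 2-fold difference either way, at normalised read counts no higher than 50.0.

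No gene was called different between shA and shB by limma or edgeR, and 13 were by DESeq2. With limma on log2(normalised reads + 0.5), 0 of 14196 genes had an adjusted p under 0.05, a background of 0.0%, and the smallest adjusted p was 0.851. At an unadjusted p under 0.05 there were 283 genes higher in shA, 1.99% of all tested, and 390 higher in shB, 2.75%. Together these were 673 genes or 4.74%. The quasi-likelihood test of edgeR on the recovered reads also called 0 genes, with 691 at an unadjusted p under 0.05. The DESeq2 calls on the same reads were 13 genes, 6 higher in shA and 7 higher in shB, which is 0.104% of the 12506 genes to which it gave an adjusted p. The 95% interval of the limma difference lay within 2-fold either way for 9065 genes, 63.9% of those tested, and within 4-fold for 13123 genes, 92.4%. For the other genes a missing call leaves larger differences possible. The labels do not say whether every tumour grew in a separate mouse, so a p-value here reflects how far these libraries vary, which may be technical in part.

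A looser description counts genes whose 3 shA values and 3 shB values do not overlap. There were 899 genes with all shA tumours above all shB tumours, 6.33% of those tested, and 759 with all shB tumours above, 5.35%. These shares are the background for the counts of list members given below. Where the NTC tumours lay relative to these genes was unevenly split. Of the 899 genes higher in shA, the NTC mean lay beyond shA, away from shB, for 387 genes or 43.0%, between the knockdowns for 321 or 35.7%, and beyond shB for 191 or 21.2%. Of the 759 genes higher in shB, it lay beyond shA for 395 or 52.0%, between for 232 or 30.6%, and beyond shB for 132 or 17.4%. Over all genes tested the shares were 38.9%, 19.1% and 41.9%. These positions carry no test, since the genes were chosen by the shA and shB values themselves.

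The genes with the smallest p higher in shA included several that hypoxia is known to raise. Bnip3, a mitophagy receptor, read 2266, 2408 and 2500 normalised reads in shA and 1590, 1327 and 1396 in shB, with 5825, 4112 and 3906 in NTC. Pgk1, the glycolytic phosphoglycerate kinase, read 15605, 13697 and 13660 in shA and 8346, 9968 and 9521 in shB. For both genes the shA and shB tumours formed separate ranges and all NTC tumours lay above both. The log2 difference was 0.74 (SE 0.14) for Bnip3 and 0.63 (SE 0.15) for Pgk1, with an adjusted p of 0.851 for each in limma. Slc16a3, the lactate exporter MCT4, read 4401, 3643 and 4610 against 2326, 2603 and 2942, a log2 difference of 0.68 (SE 0.16). Ddit4, an inhibitor of mTORC1 signalling, read 4796, 2902 and 2471 against 1349, 1579 and 1786, and differed by 1.06 (SE 0.25). Here too shA and shB had no overlap. NTC tumours read 7641 to 9017 for Slc16a3, above both, and 4232 to 5969 for Ddit4, overlapping shA.

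Other genes with small p higher in shA had separate roles. Fgfbp3, a secreted protein that binds fibroblast growth factors, read 2222, 3247 and 2203 in shA and 1387, 1055 and 1011 in shB, a difference of 1.14 (SE 0.21), with NTC at 6032 to 8221. Uox, urate oxidase, read 747, 828 and 525 against 339, 181 and 205, with NTC at 863 to 1260. In both genes shB was lowest and NTC highest, with no overlap among the 3 groups. Pla2g7, a phospholipase that inactivates platelet-activating factor and is made by macrophages, had the other order, at 1898, 1768 and 1466 in shA, 1059, 808 and 928 in shB and 130 to 220 in NTC. None of these genes had an adjusted p under 0.05 in limma.

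The 8 genes with the smallest p higher in shB all had their lowest mean in NTC. Apob, the apolipoprotein of lipoprotein particles, read 103, 336 and 390 in shA and 973, 981 and 1221 in shB, with 21.4, 85.3 and 89.2 in NTC. Cyfip2, a subunit of the WAVE actin-regulating complex, read 375, 855 and 1153 against 2366, 1968 and 2327, with NTC at 25.9 to 124. Both had shA replicate 1 as the lowest knockdown tumour, and without overlap the log2 differences were -2.14 (SE 0.47) and -1.62 (SE 0.37). Egfr, the epidermal growth factor receptor, read 124, 111 and 185 against 282, 352 and 340, a difference of -1.24 (SE 0.27). Pclo, a presynaptic scaffold protein, read 69.7, 67.3 and 143 against 313, 303 and 275, a difference of -1.75 (SE 0.34). For Egfr the NTC tumours read 10.1 to 44.2 and for Pclo 30.4 to 70.0.

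The remaining 4 of these genes had tighter values. B4galnt2, a glycosyltransferase, read 424, 385 and 479 in shA and 795, 806 and 708 in shB. Papss2, which makes the sulfate donor for sulfation reactions, read 249, 223 and 249 against 495, 406 and 414. Nfix, a transcription factor of the nuclear factor I family, read 2845, 2933 and 4108 against 5280, 5626 and 5492. Dennd4a, which activates Rab proteins, read 627, 585 and 552 against 935, 904 and 897. In each of these 4 genes no value was shared between the ranges, and the log2 differences were between -0.86 and -0.63. The 16 genes with the smallest p, 8 in each direction, kept their sign in every alternative analysis, and the tightness of their replicates is part of how they were ranked.

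**Figure D1:**
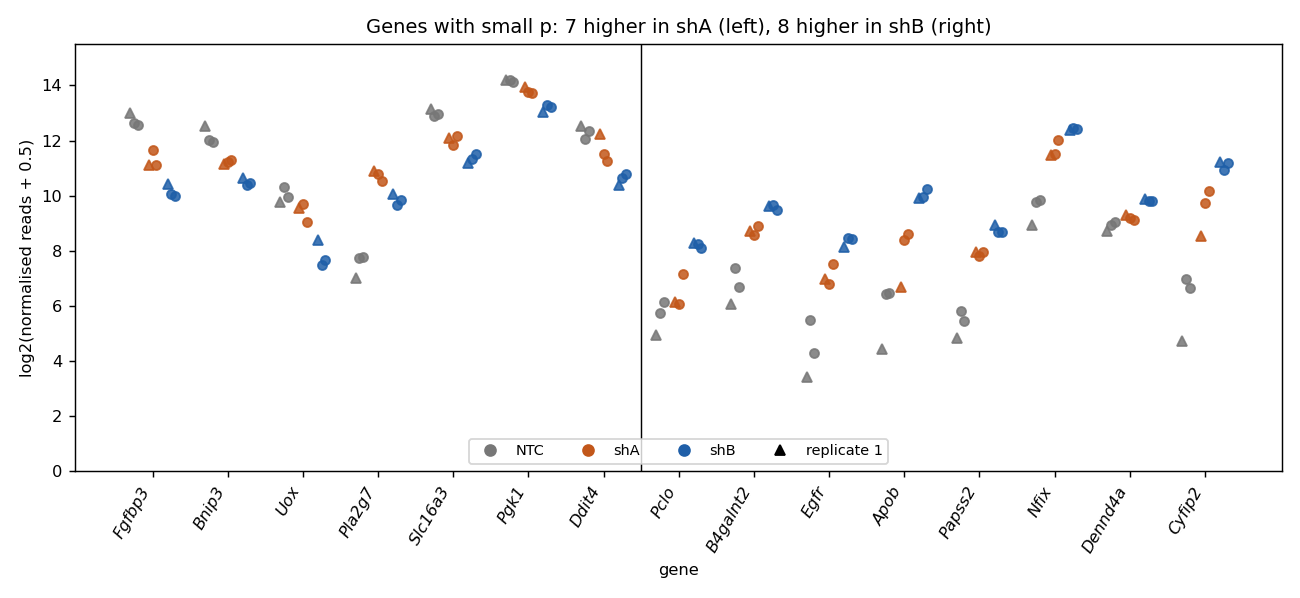
Values of genes with the smallest p, 7 higher in shA and 8 higher in shB, as log2(normalised reads + 0.5) on the vertical axis, with 1 point per tumour and triangles for replicate 1. NTC is grey, shA orange and shB blue. The knockdown ranges do not overlap for any gene shown, the NTC mean lies beyond shA for 14 of the 15, and for Pla2g7 it lies beyond shB.

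Of the 13 genes that DESeq2 called, 12 were among the 16 with the smallest p. They were Fgfbp3, Bnip3, Uox, Pla2g7, Pgk1 and Ndufa4l2 higher in shA, and Apob, B4galnt2, Cyfip2, Dennd4a, Egfr, Papss2 and Pclo higher in shB, with adjusted p in DESeq2 from 0.0116 to 0.0494. The NTC mean lay beyond shA for 12 of the 13 and beyond shB for Pla2g7. Ndufa4l2, a mitochondrial protein that hypoxia induces, read 834, 420 and 311 normalised reads in shA and 192, 165 and 152 in shB, with NTC at 768 to 1210. Its shA and shB tumours did not overlap, and shA replicate 1 was the highest. None of the 13 passed in limma or edgeR.

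Genes of hypoxia and glycolysis had the largest share of members without overlap of any list examined. Of 20 genes, all tested, 12 had every shA tumour above every shB tumour and 0 the reverse, beside 6.33% and 5.35% of all genes. By group mean 19 were higher in shA, and 11 had an unadjusted p under 0.05 in that direction, beside 1.99% of all genes. The list median was 0.43 on the log2 scale against 0.01 over all genes. The members were chosen with results of these tumours known, and several were already among the smallest p, so these counts describe the list and carry no test. The sum over the list was 160339, 159753 and 146304 normalised reads in shA, 117763, 116146 and 117104 in shB, and 235216, 209413 and 203238 in NTC. The 3 groups did not overlap in this sum, and the order was NTC, shA, shB.

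Individual steps of glucose uptake and glycolysis had similar differences. Slc2a1, the glucose transporter GLUT1, read 5708, 5289 and 4440 in shA and 4062, 2924 and 3280 in shB, with NTC at 10367 to 16282, and differed by 0.59 (SE 0.17). Pfkl, a phosphofructokinase subunit, read 7177, 6668 and 6612 against 5098, 4738 and 4659, and differed by 0.50 (SE 0.13). Neither set of ranges overlapped. Ldha, lactate dehydrogenase A, and Aldoa, an aldolase, were named after their values were seen. Ldha read 31903, 28952 and 27833 against 17722, 21536 and 22608, and Aldoa 26208, 27710 and 24785 against 19338, 19049 and 19574. Car9, a carbonic anhydrase and classical hypoxia marker, was the 1 member with a higher mean in shB, at 64.3, 55.1 and 90.2 against 76.6, 136 and 99.1. Its ranges overlapped. Hk2, hexokinase 2, differed by 0.01 (SE 0.14). For 15 of the 20 genes the 95% interval lay within 2-fold either way.

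The difference did not rest on the first replicates. Without shA replicate 1 and shB replicate 1 the list median was 0.39, and with each tumour left out in turn it was 0.37 to 0.50. The number at an unadjusted p under 0.05 was 6 to 14 over the alternative analyses, all higher in shA. Endothelial genes, given further below, were high in shA replicate 1, and their part in these values was not tested. The promoters of Bnip3 and Pgk1 are printed because hypoxia-inducible factors bind the core letters ACGTG and GCGTG and these genes had the smallest p in the list. The sequences run 5′ to 3′ along the gene, from 250 bases before to 50 after its start, as RefSeq gives them on GRCm38.p6. Capitals mark ACGTG or GCGTG on either strand, which on the reverse strand reads CACGT or CACGC. The Bnip3 window is chr7:138909457-138909756 on the minus strand and the Pgk1 window chrX:106186850-106187149 on the plus strand.
Bnip3: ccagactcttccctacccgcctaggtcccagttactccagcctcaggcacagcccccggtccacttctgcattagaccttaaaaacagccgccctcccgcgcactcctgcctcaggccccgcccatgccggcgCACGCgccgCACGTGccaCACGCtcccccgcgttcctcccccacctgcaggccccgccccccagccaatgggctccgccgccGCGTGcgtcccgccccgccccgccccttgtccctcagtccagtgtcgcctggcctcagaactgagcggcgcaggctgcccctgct
Pgk1: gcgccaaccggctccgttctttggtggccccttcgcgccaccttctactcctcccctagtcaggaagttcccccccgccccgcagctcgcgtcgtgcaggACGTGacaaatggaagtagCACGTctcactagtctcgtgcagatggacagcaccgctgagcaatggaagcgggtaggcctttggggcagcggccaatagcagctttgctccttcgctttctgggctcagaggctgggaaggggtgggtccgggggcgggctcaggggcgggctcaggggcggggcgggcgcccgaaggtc

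The Bnip3 window held 5 matches, of which a pair overlaps on opposite strands, and the Pgk1 window held 2. Of the 17 list members with a RefSeq promoter entry, 13 or 76.5% held at least 1 match, against 11836 of 27025 promoters or 43.8% overall. A match is a description of the letters, and binding was not measured.

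**Figure D2:**
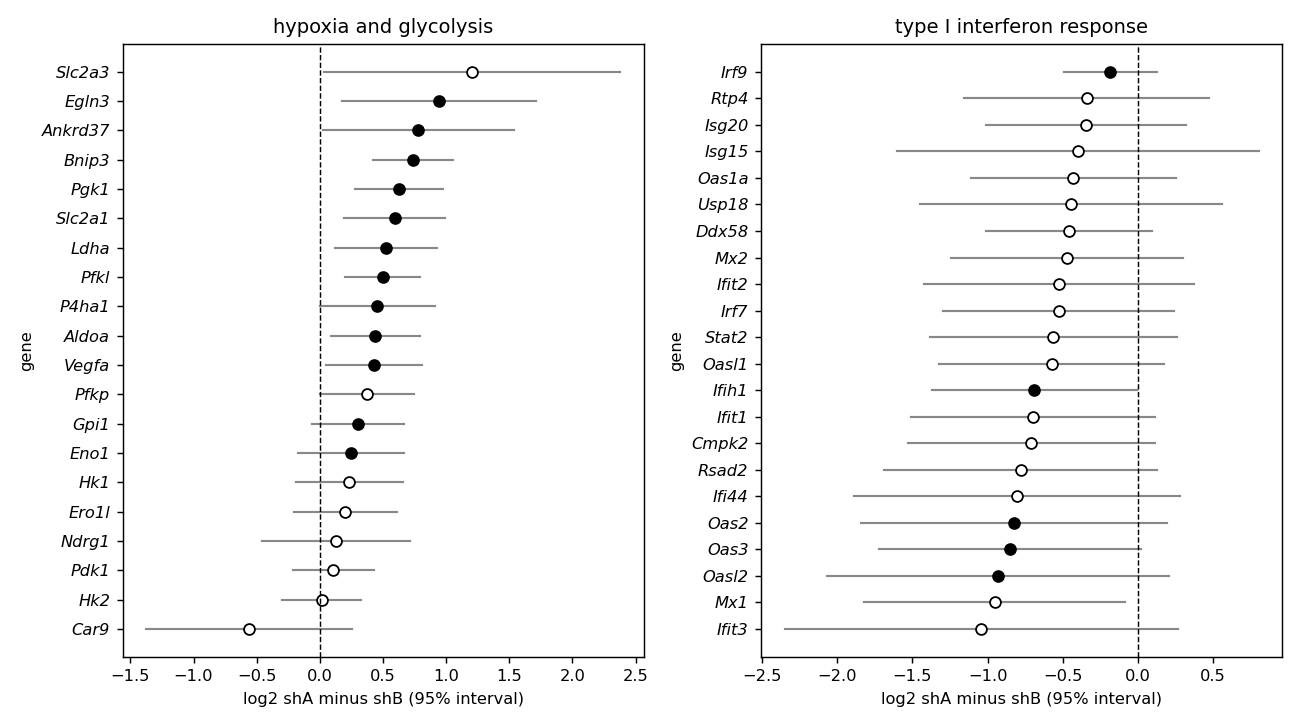
Difference shA minus shB on the log2 scale, horizontal axis, for each tested gene of the hypoxia and glycolysis list (left) and the type I interferon list (right), with 95% limma intervals. Filled points are genes whose shA and shB tumours do not overlap, 12 of 20 at left and 5 of 22 at right. At left 19 of 20 points are above 0, and at right all 22 are below 0.

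Interferon-stimulated genes lay on the other side. Many of these genes encode antiviral proteins made after type I interferon or double-stranded RNA is sensed. All 22 of the tested type I genes had a higher mean in shB, with a list median of -0.57. Of these, 5 were without overlap and 2 had an unadjusted p under 0.05 in limma, beside 5.35% and 2.75% of all genes. Mx1, an interferon-induced gene, read 89.3, 151 and 227 normalised reads in shA and 212, 331 and 319 in shB, a difference of -0.95 (SE 0.37). Ifih1, the double-stranded RNA sensor MDA5, read 586, 1206 and 1266 against 1634, 1378 and 1666, and Oas3, a synthetase activated by such RNA, 205, 575 and 525 against 784, 648 and 714. In Ifih1 and Oas3 the ranges did not overlap, while in Mx1 the highest shA value was above the lowest shB value. NTC tumours were lower throughout these 3 genes, at 16.9 to 48.9 for Mx1 and 148 to 525 for Ifih1.

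That list difference was smaller without shA replicate 1. In shA replicate 1 the median deviation of the 22 genes from the mean of the 6 tumours was -1.10, against -0.09 and 0.22 in the other shA tumours and 0.04, 0.37 and 0.59 in shB. Without shA replicate 1 the list median was -0.22, with any other single tumour left out it was -0.82 to -0.52, and without both first replicates -0.35. The 26 genes of the interferon-gamma response gave a median of -0.34 that became -0.02 without both first replicates, with shA replicate 1 at -1.17. There Cxcl11, a T cell attractant, read 1.09 in shA replicate 1, 45.8 and 41.0 in the other shA tumours and 51.4, 63.8 and 65.3 in shB. Its ranges did not overlap, the 1 such gene among the 26, beside 5.35% of all genes with shB above.

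Genes of the RNA interference pathway and of double-stranded RNA sensing were examined because both groups depend on a processed hairpin. Of 12 genes, 1 had shB above shA without overlap and 0 the reverse, beside 5.35% and 6.33% of all genes. The list median of -0.25 became 0.02 without both first replicates. Ago3, an Argonaute protein, read 222, 310 and 804 in shA and 608, 1788 and 1389 in shB, with overlap. Tlr3, an endosomal receptor for double-stranded RNA, read 205, 424 and 543 against 762, 621 and 803, and was the gene without overlap. Ago1 read 1837, 1832 and 2148 against 2740, 2658 and 2101, and Eif2ak2, the kinase PKR, 342, 835 and 735 against 1298, 796 and 867, both with overlap. Dicer1, Drosha and Xpo5 had intervals that included 0.

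Cytotoxic lymphocyte and T cell genes had higher means in shA, but the T cell median was 0.10 without shA replicate 1. Of 15 cytotoxic lymphocyte genes 5 had shA above shB without overlap and 0 the reverse, beside 6.33% and 5.35% of all genes. Their median of 0.55 was 0.53 without both first replicates. Ccl5, a chemokine of activated T and NK cells, read 1091, 804 and 737 normalised reads in shA and 313, 400 and 574 in shB, a difference of 1.05 (SE 0.26), with NTC at 6.76 to 55.7. Nkg7, a cytotoxic granule protein, read 324, 353 and 311 against 233, 221 and 217, and Tbx21, the transcription factor T-bet, 135, 66.4 and 73.0 against 54.0, 34.4 and 38.3. None of these ranges overlapped. Gzma, granzyme A, went the other way at 246, 250 and 471 against 162, 545 and 735 and overlapped, and was named after its values were seen. No granule gene passed in limma.

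Of 20 T cell genes 4 had shA above shB without overlap, beside 6.33% of all genes. Their median of 0.72 became 0.09 without both first replicates. Cd8a, a co-receptor of cytotoxic T cells, read 626, 504 and 391 against 353, 257 and 301. Cd3d, a subunit of the T cell receptor complex, read 635, 157 and 185 against 95.8, 100 and 114, and Skap1, an adaptor protein of T cells, 411, 69.2 and 77.9 against 43.5, 52.1 and 39.4. All 3 were free of overlap, and in Cd3d and Skap1 shA replicate 1 was far above the other shA tumours. The summed T cell list was 11492 in that tumour and 2931 to 3713 in the other 5. Of the 12 genes for inhibitory receptors or regulatory T cells, 1 was free of overlap, Lag3, at 416, 383 and 371 against 328, 289 and 311. The median of these 12 was 0.08 and turned to -0.07 without shB replicate 2. The 3 NK genes tested of 8 listed had a median of 0.11 with overlap in each, and -0.21 without shA replicate 2.

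Macrophage genes were also higher by mean in shA. Of 15 macrophage genes 14 had a higher mean in shA, with a median of 0.41 that was 0.40 without both first replicates. Only 1 was free of overlap, with shA above, beside 6.33% of all genes. C1qc, a complement subunit made by macrophages, read 5259, 3864 and 3685 in shA and 2628, 2456 and 3583 in shB, a difference of 0.56 (SE 0.20). Trem2, a lipid-sensing receptor, read 718, 421 and 292 against 208, 235 and 298, with overlap. The summed macrophage list was 57205 to 65948 in shA and 36701 to 51606 in shB, with no overlap. Of 15 leukocyte chemokines 5 had shA above shB without overlap, namely Ccl5, Ccl6, Ccl8, Ccl9 and Cxcl16, while the list median was 0.05 and between -0.02 and 0.35 with 1 tumour left out. Ccl8, a monocyte and eosinophil attractant, read 2505, 1435 and 1122 against 729, 636 and 1098, and Ccl6 read 7960, 3175 and 2977 against 1571, 1926 and 1896.

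Genes of colon epithelium and Wnt signalling include some that were higher in shB. Wnt signalling drives the stem and progenitor programme of the colon. Of 20 Wnt targets and regulators 3 had shB above shA without overlap and 0 the reverse, beside 5.35% and 6.33% of all genes. Their median of -0.25 was -0.11 without both first replicates. Sox9, a transcription factor of colon progenitors, read 598, 907 and 1494 normalised reads in shA and 1791, 3234 and 2628 in shB, with NTC at 113 to 183, a difference of -1.41 (SE 0.35). Ephb2, a crypt-positioning receptor, read 143, 384 and 432 against 604, 743 and 617, and Rnf43, a ubiquitin ligase that limits Wnt receptors, 1979, 2437 and 2619 against 3757, 2736 and 2773. Axin2, the textbook Wnt target, named after its values were seen, read 10947, 13672 and 12958 against 13378, 10674 and 10280, with overlap. Myc, the growth-promoting transcription factor, read 832, 871 and 1704 against 1187, 2405 and 2837, with overlap.

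Of 15 epithelial and tumour cell genes, 1 had shB above shA without overlap and 0 the reverse, beside 5.35% and 6.33% of all genes. That gene was Cdh1, which encodes E-cadherin. It read 18413, 18607 and 18060 in shA and 21503, 21868 and 21748 in shB, a difference of -0.24 (SE 0.14). Krt20, a keratin of differentiated colon cells, read 47.9, 49.5 and 135 against 47.9, 550 and 314, and Vil1, the brush border protein villin, 118, 203 and 407 against 252, 492 and 535. Both overlapped, with shA replicate 3 the highest shA tumour in each. Proliferation genes differed least among the lists by interval, since all 27 had a 95% interval within 2-fold either way and the median was 0.07, or 0.20 without both first replicates. Birc5, survivin, read 3867, 2897 and 3321 against 1969, 2949 and 2915. Rrm2, a ribonucleotide reductase subunit, was the 1 member free of overlap, at 3103, 3797 and 3658 against 2939, 2822 and 3018.

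Among genes around the Gad1 enzyme, 3 were free of overlap. Of 16 genes of GABA and glutamate metabolism, 2 had shA above shB without overlap and 1 the reverse, beside 6.33% and 5.35% of all genes, with a median of -0.07. Glul, glutamine synthetase, read 19704, 13278 and 10317 in shA and 9574, 9153 and 9634 in shB, a difference of 0.56 (SE 0.24). Slc1a3, a glutamate transporter, read 595, 1079 and 991 against 1387, 1111 and 1087. Gad2, the other glutamate decarboxylase gene, read 83.9, 73.8 and 260 against 115, 435 and 382, with overlap and with NTC at 124 to 172. Of 19 integrated stress response genes 1, Shmt2, was free of overlap, and 17 had a higher mean in shA. Their median of 0.27 was 0.16 without shB replicate 1 and 0.07 without both first replicates. Of 16 heat shock genes 1, Hspa4l, had shB above shA, at 558, 880 and 548 against 419, 367 and 530.

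Most of the sum of squares among the 6 tumours lay within the shRNA groups. Over all genes tested the median absolute difference between the shRNA means was 0.21 on the log2 scale, while the median pooled SD within an shRNA was 0.30. The first compares group means and the second is a spread of single tumours, so their sizes are not directly comparable. The split by shRNA held 22.0% of the total sum of squares over genes, where the 6 tumours leave 5 directions in all. Without both first replicates it held 47.6%, but fewer tumours leave fewer directions, so this share is not directly comparable with 22.0%. The first principal component of the log2 values held 51.8% of the variance and set shA replicate 1 apart, with a score of -86.4 against 10.8 to 40.6 for the other 5. The second held 27.3% and had shB replicate 1 at -47.5 and shB replicates 2 and 3 at 32.5 and 32.2, with the shA tumours between at -18.0 to 14.5.

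Distances between single pairs gave the same ordering. The SD over genes of the log2 difference was smallest between shB replicates 2 and 3, at 0.395. Next came shA replicate 3 with shB replicate 3 at 0.409 and with shB replicate 2 at 0.420, both closer than shA replicate 3 was to shA replicate 2 at 0.459. Every pair with shA replicate 1 was at 0.887 or more, and its largest distance was 1.11, to shB replicate 1. The shB replicates 1 and 2 were at 0.747, above 6 of the 9 pairs that differ in shRNA. These distances include counting error of low genes.

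**Figure D3:**
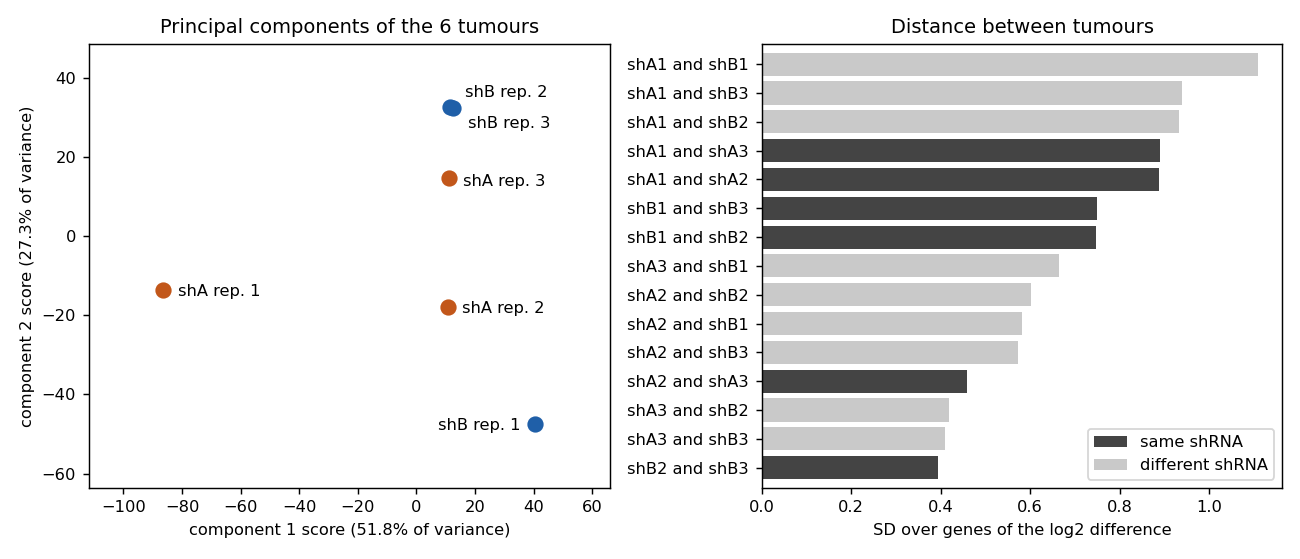
Left, scores of the 6 knockdown tumours on the first and second principal components of log2(normalised reads + 0.5), with shA orange and shB blue. Right, SD over genes of the log2 difference for each of the 15 pairs, dark bars for pairs with the same shRNA. Component 1 separates shA replicate 1, the closest pair shares an shRNA, and the 3 most distant pairs, all with shA replicate 1, do not.

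Among 13041 genes with a mean of at least 40 normalised reads, 499 were more than 2-fold above the next highest tumour in shA replicate 1 and 269 more than 2-fold below the next lowest. For shB replicate 1 these counts were 114 and 244. In the other 4 tumours they were 0 to 2 above and 9 to 19 below. The genes that stood apart in shA replicate 1 included markers of several host cell classes. Cd79a, a signalling subunit of the B cell receptor, read 991 normalised reads there and 16.7 to 33.6 in the other 5, and Cd79b 639 against 21.4 to 42.6. Ly6d, a surface protein of early B cells and of some epithelia, read 704 against 18.9 to 22.6. The 5 B and plasma cell genes tested of 14 listed had a median deviation of 3.49 there, against -1.15 to -0.05 elsewhere.

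Eosinophil and alternatively activated macrophage genes were high in the same tumour. Rnase2a, an eosinophil ribonuclease, read 2569 in shA replicate 1 and 6.97 to 86.4 in the other 5, and Ccr3, the eosinophil chemokine receptor, 380 against 16.5 to 38.3. Retnla, a secreted product of interleukin-4 stimulated macrophages, read 21977 against 272 to 1583, and Chil3, a chitinase-like protein, 5487 against 75.7 to 512. Arg1, arginase 1, read 5970 there, 1221 and 1083 in the other shA tumours and 403, 785 and 867 in shB, without overlap. The eosinophil list median of 1.22 became -0.47 without both first replicates, and the alternatively activated macrophage median of 0.53 became -0.27. Of their 6 and 12 genes, 0 and 1 were free of overlap, beside 6.33% of all genes with shA above.

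Vessel and mitochondrial genes completed this set. The 16 endothelial genes had a median deviation of 1.39 in shA replicate 1, a summed level of 22132 there and 5910 to 7692 in the other 5, and 5092 to 5724 in NTC. Plvap, a protein of fenestrated vessels, read 4538, 1291 and 1203 in shA and 1056, 984 and 1375 in shB. Without both first replicates the endothelial median of 0.50 was 0.08. Mitochondrially encoded RNA made up 6.60% of reads in shA replicate 1 and 1.04% to 1.49% in the other knockdown tumours. The 13 mitochondrial genes tested had a median deviation of 2.43 there. mt-Atp6, an ATP synthase subunit, read 1204 against 184 to 222, and mt-Nd3, a complex I subunit, 1176 against 73.1 to 198. mt-Nd6 read 66440 against 4065 to 6558, but it lies opposite mt-Nd5 and the strand setting of the counting is not given. That tumour listed 653 of the 17134 genes at 0, against 25 to 115 in the other 5 at similar depth, and 55 of the genes tested. Among these, Eml6 and Evx1 had 33.6 to 115 normalised reads in the other 5. The part of tissue content or RNA quality in these values was not tested.

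In shB replicate 1 skeletal muscle genes were high and short transcripts low. Myh1, a fast myosin heavy chain, read 2415 normalised reads there, 141 in shB replicate 3, 205 and 58.2 in shA replicates 2 and 3, and 0 in shA replicate 1 and shB replicate 2. Acta1, skeletal muscle actin, read 0, 754 and 328 in shA and 3445, 0 and 537 in shB. Its SD within an shRNA, pooled over both, was 6.27 on the log2 scale, where values of 0 enter as log2(0.5). This was the largest among the genes ranked with a mean of at least 40, which leave out classes such as predicted genes and pseudogenes. Myh4, Myl1 and Ighg2c, an immunoglobulin constant region, were also among the 5 largest. The 12 muscle genes tested of 17 listed had median deviations of -1.92, 1.06 and 0.29 in shA and 2.59, -2.64 and 0.96 in shB, so both ends of the range were seen with shB. The list median was -0.93 and became 1.69 without both first replicates, with 0 genes free of overlap in either direction.

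The Acta1 promoter is printed because that gene varied most within an shRNA among the genes ranked. The window is chr8:123894726-123895025 on the minus strand of GRCm38.p6 from RefSeq, and runs 5′ to 3′ along the gene. Capitals mark CAGCTG, an E-box that muscle transcription factors of the MyoD family bind and that reads the same on both strands.
Acta1: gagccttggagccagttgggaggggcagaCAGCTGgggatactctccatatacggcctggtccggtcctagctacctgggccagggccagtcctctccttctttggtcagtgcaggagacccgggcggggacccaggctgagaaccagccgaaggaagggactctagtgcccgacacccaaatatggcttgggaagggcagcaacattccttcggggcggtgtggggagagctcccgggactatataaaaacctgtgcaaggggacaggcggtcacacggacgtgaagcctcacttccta

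Of the 9 muscle genes with a promoter entry 7 held CAGCTG, 77.8%, against 4353 of 27025 promoters or 16.1%. No factor binding was measured.

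**Figure D4:**
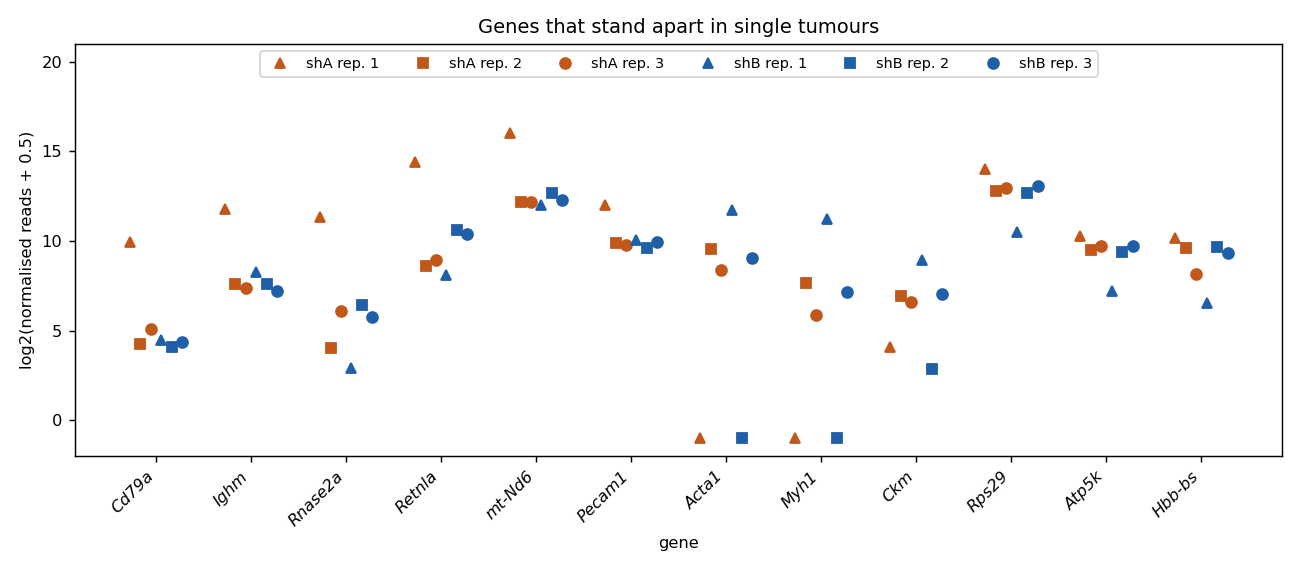
Values of 12 genes in each knockdown tumour as log2(normalised reads + 0.5), vertical axis, with 1 point per tumour, shA orange and shB blue. The first 6 genes are highest in shA replicate 1, Acta1, Myh1 and Ckm are highest in shB replicate 1 and lowest in shA replicate 1 and shB replicate 2, and the last 3 are lowest in shB replicate 1.

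Ribosomal protein genes and nuclear genes of oxidative phosphorylation have short transcripts and were low in shB replicate 1. Genes named Rpl or Rps with a number, which leaves out the Rplp genes and Rpsa, took 4.91% of reads there and 8.26% to 11.2% in the other 5. The 86 ribosomal genes had a median deviation of -0.88 in that tumour and 0.63 in shA replicate 1. The list median of 0.46 became -0.05 without both first replicates. Of the 86, 5 had shA above shB without overlap and 0 the reverse, beside 6.33% and 5.35% of all genes. Rps29, a small ribosomal protein, read 1477 there and 6634 to 16342 in the other 5, and Atp5k, an ATP synthase subunit, 145 against 678 to 1270. The 79 oxidative phosphorylation genes gave -0.87 in that tumour, a list median of 0.35 and -0.03 without both first replicates. Of the 79, 6 had shA above shB without overlap and 0 the reverse, beside the same shares of all genes. Among the 6 were Ndufa4l2 and Cox6b2, a cytochrome oxidase subunit. Near-identical copies make counts of single ribosomal genes uncertain.

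The same tumour was low in short transcripts generally. Length was that of the longest transcript annotated for each symbol in GENCODE, which need not be the transcript expressed. Such lengths matched 14064 of the genes tested, 99.1%. The 858 genes under 1000 bases had a median deviation of -0.74 in shB replicate 1 and 0.44 in shA replicate 1, and a median shA minus shB difference of 0.34 that became -0.05 without both. The 5144 genes of 4000 bases or more had 0.28 and -0.15, with a median difference of -0.11. Haemoglobin genes were lowest in that tumour too, with Hbb-bs at 92.3 against 284 to 1148, although haemoglobin copies are near identical. Whether length, tissue content or library preparation lies behind these values was not tested, and with 1 library per tumour they cannot be told apart.

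The other 4 tumours had few genes of their own. In shA replicate 2 Hspa1b, an inducible heat shock protein, read 3036 normalised reads against 230 to 792, Gzmb, granzyme B, 236 against 57.0 to 116, and Nos2, inducible nitric oxide synthase, 885 against 147 to 454. In shA replicate 3 Trpa1, an irritant-gated ion channel, read 187 against 21.8 to 54.2, with NTC at 667 to 784, and Ptx3, a secreted pattern recognition protein, 0.82 against 35.7 to 109. Trpa1 was thus closest to NTC in that tumour. In shB replicate 2 the lowest genes were of muscle, with Myh4 at 0 against 9.80 to 1170. In shB replicate 3 Serpinb5, the protease inhibitor family member maspin, read 145 against 23.4 to 67.8, and Ifit3b, an interferon-induced gene with a near-identical copy, 765 against 89.3 to 416.

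**Figure D5:**
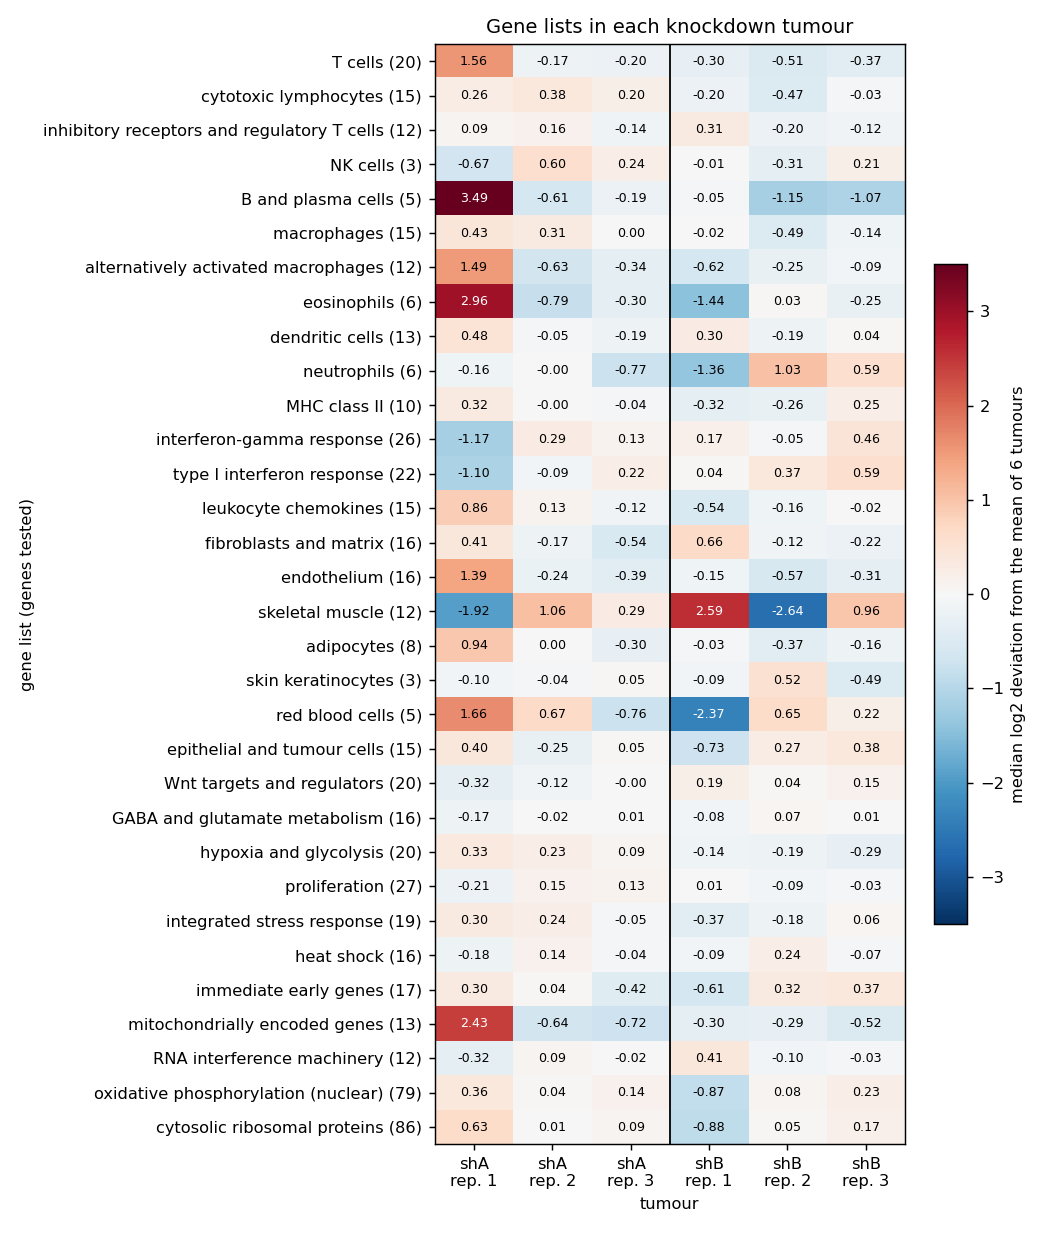
Median log2 deviation of each gene list (rows, number of genes tested in brackets) from the mean of the 6 tumours, for each tumour (columns), with red above and blue below the mean. The largest values are in shA replicate 1 for B and plasma cells, at 3.49, and eosinophils, at 2.96, and in the muscle row. The hypoxia and glycolysis row is above 0 in all shA tumours and below 0 in all shB tumours.

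The remaining lists had at most 1 member without overlap, beside 6.33% of all genes with shA above and 5.35% with shB above. Fibroblast and matrix genes had a median of -0.22, which turned to 0.05 without shB replicate 1, with 0 of 16 free of overlap. Col3a1, a fibrillar collagen, read 6145, 4436 and 3207 in shA and 10436, 5972 and 4152 in shB. Dendritic cell genes had a median of 0.16 with 0 of 13, and -0.12 without shA replicate 1. MHC class II genes had 0.23 with 0 of 10, and 0.06 without that tumour. Neutrophil genes had -0.49 with 0 of 6, which turned to 0.32 without shA replicate 3 and was -1.30 without both first replicates. Hdc, histidine decarboxylase of neutrophils and mast cells, read 186, 215 and 875 in shA and 326, 1305 and 1044 in shB. Red blood cell genes had a median of 1.03 with 0 of 5, which was 0.05 without shB replicate 1 and -0.56 without both first replicates. Immediate early genes had 0.09 with 0 of 17, and -0.35 and -0.46 in the same respective cases. Adipocyte genes had a median of 0.50, which was 0.01 without shA replicate 1, and 1 of 8, Pparg, the adipocyte transcription factor, was free of overlap. Among the 3 keratinocyte genes tested of 11 listed, Krt10 was free of overlap at 76.2, 37.4 and 58.2 against 23.5, 36.3 and 22.5.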

How the data were processed

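Each library's deposited table gives 1 value per gene, a normalised signal. From the values themselves, these are read counts per gene that the authors divided by 1 factor per library: in each knockdown library 100% of values were, within a tolerance of 0.001, whole multiples of what 1 read is worth. The submitters' processing notes list Cuffdiff 2.2.1 and the build mm9 without their role. Aligner, counter, strand setting and annotation: not given in the sources used here. Genes with a value of at least 20 in at least 3 of the 6 knockdown libraries were tested with limma 3.58.1 in R 4.3.3 on log2(value + 0.5), with a trended prior and Benjamini-Hochberg adjustment at 0.05. Recovered reads were also tested with edgeR 4.0.16 and DESeq2 1.42.0 as alternatives. Gad1 was tested by an exact permutation test. The main test was checked on simulated data in which each gene was drawn independently. Shifts shared by many genes, as in shA replicate 1 and shB replicate 1, were not simulated. The shares called may therefore not hold for these tumours. In the simulated data the test called 74.5% of 102 genes with a true 4-fold change and 25.5% of 98 with a true 2-fold change. It also called 11 unchanged genes.

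The libraries, gene lists and naming rule were chosen with earlier results of these data known. Named genes were the 8 per direction with the smallest p, no overlap and a mean of at least 40 (none passed), the 4 list members with the smallest p, genes that stood apart in single tumours and the 5 with the largest SD within an shRNA. Predicted genes were not named, and some items that the rule selects are not reported here. Lengths came from GENCODE and promoter sequences from RefSeq (GRCm38.p6), matched by symbol. Replicate numbers were not used as pairs in the main test, and the labels do not say what they mark.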

Additional observations from a re-analysis of the deposited data

How the results depend on the processing

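No gene was called in either direction under another pseudocount, filter, scaling or prior, with library weights, with all 9 libraries in 1 fit, with edgeR or with any 1 tumour left out, each giving 0 genes. DESeq2 called 6 genes higher in shA and 7 higher in shB. The cause was not tested. The smallest adjusted p in limma was 0.851 with all 6 tumours, 0.381 with library weights and 0.681 with all 9 libraries, and with 1 tumour left out it ranged from 0.437 without shA replicate 3 to 0.999 without shA replicate 1. Genes at an unadjusted p under 0.05 numbered 292 without shB replicate 2 and 1022 without shB replicate 1, against 673 with all 6 and 1291 with library weights. Leaving out replicate 1 of both groups, chosen after seeing the data, gave 0 calls, a smallest adjusted p of 0.0726 and 1990 genes at an unadjusted p under 0.05. A replicate block gave 0 calls and 535 genes at an unadjusted p under 0.05. The correlations of deviations between equally numbered tumours were -0.178, -0.362 and 0.092. The highest of all pairs, 0.402, was between shA replicate 2 and shB replicate 1. The labels do not say whether equal numbers mark a shared batch, and these correlations cannot settle it. The Gad1 difference lay between -0.66 and 0.29 with 1 tumour left out and was 0.64 with library weights, always without a call. The limit on small differences is the spread among 3 tumours a group: intervals stayed within 2-fold for 63.9% of genes. Of 186 named genes 57 changed sign in at least 1 alternative, and 0 of the 16 with the smallest p did.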
